A study of Mus musculus with 9 samples.

Results

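The 41 lysosome and autophagy genes described here were chosen by name, with earlier results of these data known. They were looked up by gene symbol in a table of estimated counts of 55487 mouse genes, each stood on 1 row, and all 41 were among the 12813 genes that passed a filter on low counts. The table holds 9 poly(A) RNA libraries of D2.0R (D2.OR in some labels), a murine cell line from an adenocarcinoma of the mammary gland. Cells carrying CellTrace Far Red (CTFR), a dye that is diluted as cells divide, grew at 2% serum for 1 week, and flow sorting then separated those that had kept the dye (quiescent) from those that had lost it (proliferating). All libraries come from this 1 line with no other treatment or genotype. The labels name CTFR-positive, bulk and CTFR-negative samples but tie no library to a kind, so the libraries are called by their title numbers, 1 to 9, and are not read as quiescent or proliferating. Runs of title numbers (1 to 3, 4 to 6 and 7 to 9) and their middle and last numbers are used only to describe where values lie, and no test was made between them.

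Lysosomes are acidic compartments in which enzymes break down proteins, sugar chains and lipids that arrive by endocytosis or by autophagy, the process by which a cell wraps part of its own contents in a membrane and delivers it for digestion. A proton pump, the V-ATPase, acidifies the lumen, and transporters and channels in the membrane export the products. Transcription factors of the MiT/TFE family (TFEB, TFE3 and MITF) bind a short palindrome in the promoters of many of these genes, and mTORC1, a growth-regulating kinase complex on the lysosome surface, holds TFEB and TFE3 in the cytoplasm when nutrients are plentiful.

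Most lysosome and autophagy genes shared a pattern over the libraries, with their lowest level in library 8 and low levels in library 5. Of the 41 genes, 30 were lowest in library 8, against 14.7% of all tested genes. The highest value lay in library 6 for 18 of the 41 (5.98% of all tested genes) and in library 9 for 14 (17.4%). As a share of all counts the 41 genes made up 1.56% in library 8 and 1.83% in library 5, and 2.52% in library 6. Each gene's log2 CPM was also set against its own median over the libraries, and the median of these differences over the 41 genes was, for libraries 1 to 9 in order, -0.12, -0.04, 0.06, 0.00, -0.30, 0.16, 0, -0.52 and 0.11. Over all tested genes that median was 0 in every library. CPM are counts scaled to a common library size after correction of the libraries by TMM factors. In bulk samples, fewer cells of a type and less RNA of a gene per cell cannot be told apart.

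**Figure D1:**
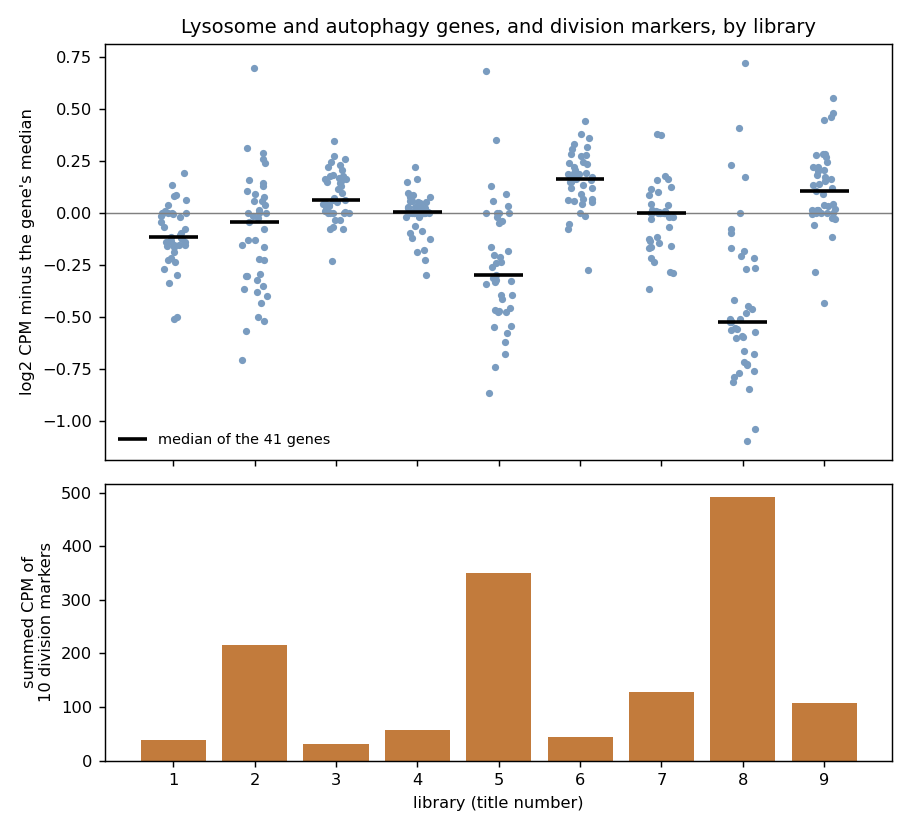
Upper panel, difference of log2 CPM from the gene's median for each of the 41 genes (points) with their median (black line), and lower panel, the summed CPM of 10 division markers, by library. The median is lowest, at -0.52, in library 8, where the summed CPM of the division markers is highest, at 492.

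Within runs of title numbers, library 5 was the lowest of libraries 4 to 6 for 31 of the 41 genes (43.9% of all tested genes) and library 8 the lowest of 7 to 9 for 34 (40.0%). In the first run no library stood out as the low one, since library 2 was lowest of libraries 1 to 3 for 21 genes, a share near that of all tested genes (44.1%), and library 1 for 17 (29.2%). In 21 of the 41 genes the middle library was lowest in all 3 runs, against 29.5% of all tested genes. The last library was often the high one, since library 3 was highest of its run for 28 genes (25.7% of all tested genes), library 6 for 33 (27.5%) and library 9 for 29 (32.4%). It was highest in all 3 runs for 22 genes, against 12.1%. Libraries 2, 5 and 8 held the 3 lowest values of 19 members (20.1% of all tested genes) and the 3 highest of 3 members (19.0%), which were Tfeb, Lipa and Wipi1. Libraries 3, 6 and 9 held the 3 highest values of 12 members (5.15%). By runs such a split was rare. Libraries 7 to 9 held the 3 lowest values of 1 member, Ulk1 (4.10% of all tested genes), and in 0 members did they hold the 3 highest or did libraries 1 to 3 or 4 to 6 hold either (0.0312% to 3.92% of all tested genes). Without library 8, libraries 2 and 5 held the 2 lowest values of 19 members (25.5% of all genes then tested), and 26 members were lowest in library 5 (15.9%).

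Genes of cell division lay the other way round. The 10 division markers Mki67, Top2a, Ccnb1, Ccnb2, Cdk1, Hmmr, Plk1, Aurka, Bub1 and Cenpf had a summed level of 216 CPM in library 2, 349 in library 5 and 492 in library 8, and of 31.5 to 128 CPM in the other libraries. All 10 were highest in library 8, as were 17.1% of all tested genes. This opposite order did not hold in every library. In library 2 the median difference of the 41 genes was -0.04, above the -0.12 of library 1, where the markers summed to 39.4 CPM. Libraries 7 and 9, with 128 and 109 CPM of the markers, lay at 0 and 0.11. The part of division in the levels of the lysosome genes was not tested. Lysosomal genes are also abundant in macrophages. Of 12 macrophage markers, Cd68 and Cd14 alone passed the filter. Ptprc, which encodes the leukocyte surface protein CD45, reached at most 0.109 CPM, Adgre1 at most 0.0284 CPM and Csf1r at most 0.104 CPM, in each case at most 3 counts in any library. Summed over the 12 markers, the level ran from 6.13 (library 8) to 15.8 CPM (library 1), and was next lowest in library 5, at 7.21 CPM. Most of it came from Cd68, itself the gene of a lysosomal membrane protein, and Cd14. The part of macrophages in the levels of the lysosome genes was not tested. Library depth ran from 18732737 counts in library 9 to 41243036 in library 7, and genes of the mitochondrial genome took 1.31% to 2.05% of counts. Of epithelial genes, Krt8 ran from 146 to 662 CPM, Krt18 from 38.0 to 156 CPM and Cdh1 from 5.46 to 13.03 CPM. Epcam reached at most 0.219 CPM. Vim, which encodes vimentin, ran from 3495 to 5849 CPM.

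All 41 genes varied over the libraries by more than counting noise, as did 94.1% of all tested genes (chi-square test of dispersion, Benjamini-Hochberg adjusted p under 0.05). A gene is called variable here when it also had a range of at least 2-fold between its highest and lowest library. By that rule 10 of the 41 were variable, against 28.0% of all tested genes, a share near the background. They were Ctsa, Ctsl, Neu1, Gla, Gaa, Hexa, Npc1, Tfeb, Mitf and Sqstm1. The median range of the members was 0.77 on the log2 scale, against 0.69 for all tested genes. Without library 8 it was 0.58 against 0.65, and 4 members were variable (25.7% of all tested genes), Gla, Npc1, Tfeb and Sqstm1. Without library 6, Ctsa, Gaa and Mitf fell under 2-fold and 7 members were variable (27.3% of all tested genes). With libraries scaled by their totals alone 5 members were variable (28.5%), Neu1, Gla, Hexa, Tfeb and Sqstm1.

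**Figure D2:**
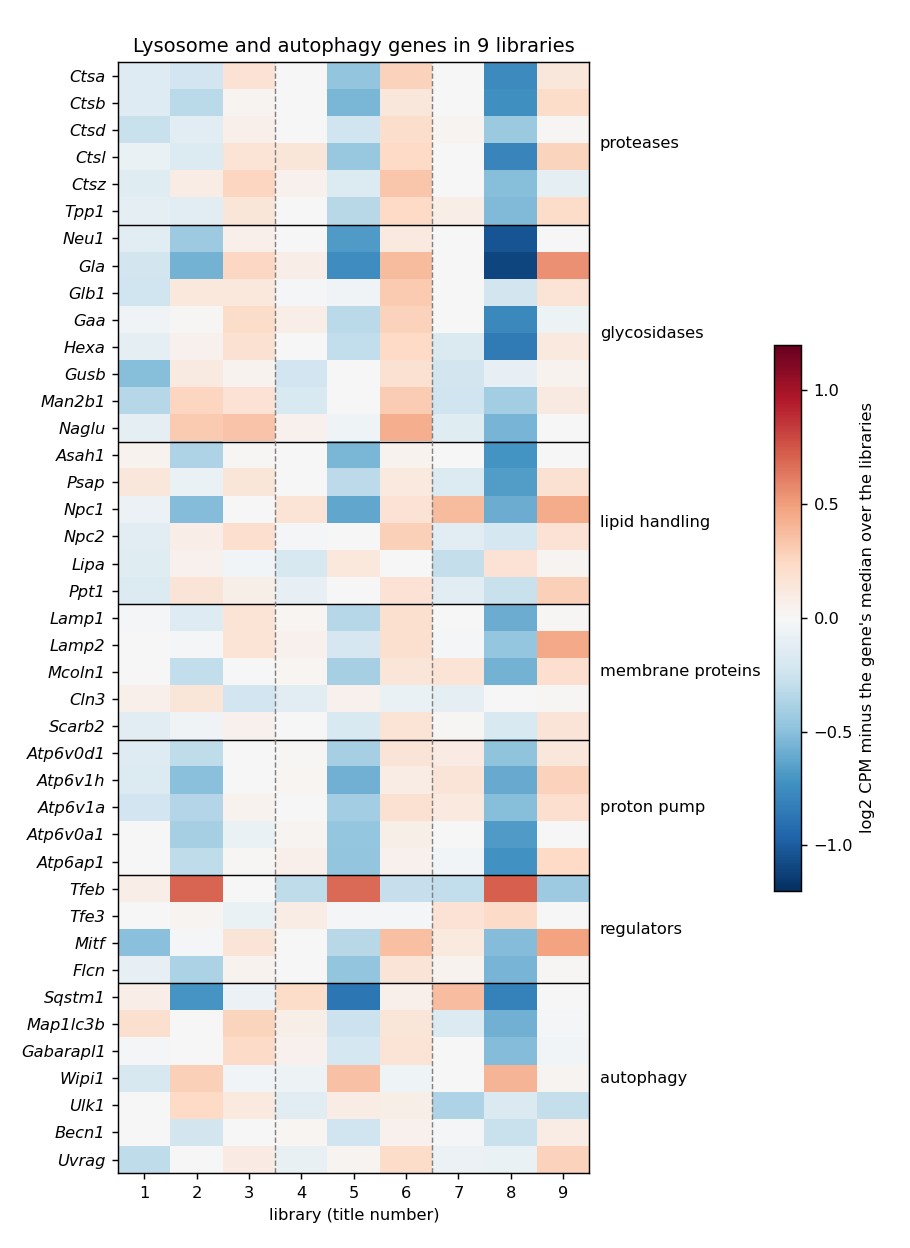
Difference of log2 CPM from the gene's median for each of the 41 genes (rows, grouped by role) in each library (columns, by title number), with blue for lower and red for higher, and dashed lines between the runs of 3 title numbers. Column 8 is blue in all rows of the proteases and the proton pump, while Tfeb, Lipa and Wipi1 are red in columns 2, 5 and 8.

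The palindrome that MiT/TFE factors recognise, CACGTG, was searched in promoter windows from RefSeq on GRCm38.p6, each 300 bases long (250 before to 50 after a transcript start). Of the 41 genes 36 had windows in that table, 44 windows in all, and 12 genes held CACGTG in 1 window each, which is 27.3% of their windows against 7.15% of all 32851 promoter windows. The longer form TCACGTGA, which contains CACGTG, stood in 7 of the 44 windows (15.9%, against 0.974% of all). A 10-base form, TCACGTGA with a G before it and a C after it, was also searched. It stood in 1 of the 44 windows (2.27%, against 0.326% of all), that of Cln3. Of the 30 windows of members lowest in library 8, 0 held this 10-base form. Both strands are covered, since each form reads the same on either strand. The genes with CACGTG were Atp6v0d1, Atp6v1a, Cln3, Ctsa, Ctsd, Ctsl, Gaa, Gla, Glb1, Lamp1, Mcoln1 and Naglu, of which 10 were lowest in library 8 and Cln3 and Glb1 were not. Lamp1 held 4 copies. Among the members with windows, 10 of the 26 lowest in library 8 held CACGTG, and 2 of the 10 lowest in another library. By gene, the share was 8.09% of all genes with windows. It was 22% of the 109 further lysosome, autophagy and mTORC1 genes with windows. With so few genes lowest in another library, no difference between these 2 groups is read from the counts. A match is a description of these letters, not a site of binding. The windows below are those of the 5 members of widest range among the 12. They are written 5′ to 3′ on the strand of the gene, with CACGTG in capitals. The windows lie at chrX:134600956-134601255 on the minus strand for Gla, at chr13:64370471-64370770 on the minus strand for Ctsl, at chr11:119267713-119268012 on the plus strand for Gaa, at chr2:164833523-164833822 on the plus strand for Ctsa, which has another window with no match, and at chr11:101069844-101070143 on the plus strand for Naglu.
Gla: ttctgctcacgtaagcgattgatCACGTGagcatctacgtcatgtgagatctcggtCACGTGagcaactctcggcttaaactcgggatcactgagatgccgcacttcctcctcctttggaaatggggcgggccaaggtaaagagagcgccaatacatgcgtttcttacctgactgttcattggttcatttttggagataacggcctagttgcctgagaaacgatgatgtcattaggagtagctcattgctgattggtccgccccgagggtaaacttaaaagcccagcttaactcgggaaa
Ctsl: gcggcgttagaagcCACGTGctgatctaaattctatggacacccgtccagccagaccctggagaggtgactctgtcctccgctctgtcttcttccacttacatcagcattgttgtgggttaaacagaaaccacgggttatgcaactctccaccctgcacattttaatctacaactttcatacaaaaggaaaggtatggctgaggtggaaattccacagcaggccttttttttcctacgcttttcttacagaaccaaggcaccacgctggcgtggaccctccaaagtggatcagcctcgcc
Gaa: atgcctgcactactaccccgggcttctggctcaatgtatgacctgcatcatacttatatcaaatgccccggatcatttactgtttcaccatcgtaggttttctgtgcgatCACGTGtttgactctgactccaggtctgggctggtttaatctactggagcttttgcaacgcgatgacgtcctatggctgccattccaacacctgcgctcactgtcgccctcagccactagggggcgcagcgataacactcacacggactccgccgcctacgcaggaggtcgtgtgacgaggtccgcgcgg
Ctsa: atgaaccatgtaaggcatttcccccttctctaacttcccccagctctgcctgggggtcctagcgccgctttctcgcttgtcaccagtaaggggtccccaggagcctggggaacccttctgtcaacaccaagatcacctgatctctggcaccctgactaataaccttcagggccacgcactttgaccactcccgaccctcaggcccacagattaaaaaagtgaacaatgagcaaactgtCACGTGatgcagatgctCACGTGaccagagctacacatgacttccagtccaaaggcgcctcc
Naglu: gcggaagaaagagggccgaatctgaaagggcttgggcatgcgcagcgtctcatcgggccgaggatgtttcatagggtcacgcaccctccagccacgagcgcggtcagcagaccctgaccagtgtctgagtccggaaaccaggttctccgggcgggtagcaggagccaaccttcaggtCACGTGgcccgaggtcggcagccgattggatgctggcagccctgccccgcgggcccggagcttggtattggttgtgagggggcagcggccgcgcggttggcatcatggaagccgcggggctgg
Gla has its copies 227 and 194 bases before the transcript start, and Ctsa has 1 copy 12 bases before it and 1 from base 6 after it. In both genes each copy is flanked to give TCACGTGA. Naglu has 1 copy 73 bases before the start, Gaa 1 at 140 bases and Ctsl 1 at 236 bases.

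All 6 proteases were lowest in library 8 (14.7% of all tested genes), and 4 of them had their 3 lowest values in libraries 2, 5 and 8 (20.1%). Ctsl, a cysteine protease also known as cathepsin L, had in libraries 1 to 9, in this order, 1081, 1018, 1275, 1261, 830.3, 1342, 1140.4, 659 and 1373 CPM. Its library 8 value was the lowest and library 5 the next, and the range was 2.08-fold (95% interval 2.05 to 2.12). Ctsa, a serine carboxypeptidase that also stabilises the sialidase Neu1 and beta-galactosidase, had 676, 644, 852, 754, 543, 913, 758, 444 and 827 CPM, in the order of the libraries, a range of 2.06-fold (95% interval 2.02 to 2.097). It too was lowest in libraries 8, 5 and 2. Ctsd, the aspartic protease cathepsin D and the most abundant member per length, had 1999.7, 2204, 2511, 2410.3, 2036, 2781, 2473, 1768 and 2428 CPM in libraries 1 to 9. There library 1 was the next lowest after library 8, and library 5 stood close to it, and the range of 1.57-fold (95% interval 1.56 to 1.59) did not reach 2-fold. Ctsb, the cysteine protease cathepsin B, ran from 2807 CPM in library 8 to 5419.8 CPM in library 9, Ctsz, a carboxypeptidase, from 531 CPM in library 8 to 952 CPM in library 6, and Tpp1, a tripeptidyl peptidase, from 164 CPM in library 8 to 280.2 CPM in library 6. In GENCODE M21, 34.4% of the exon bases of Ctsd also belong to another gene model, Gm49369, on the same strand, and 32.9% of those of Ctsl to other models, so reads could have been divided between them.

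The glycosidases, which trim sugar chains from glycoproteins, glycolipids and glycogen, included the widest range of all members. Of the 8, 4 were variable (28.0% of all tested genes) and 6 were lowest in library 8 (14.7%). Only 2 of the 8, Gla and Neu1, had their 3 lowest values in libraries 2, 5 and 8 (25%, near the 20.1% of all tested genes). Among libraries 1 to 3, library 1 was lowest for 6 of the 8 (29.2% of all tested genes). Gla, alpha-galactosidase A, which removes galactose from glycolipids, had 111, 86.8, 153, 136, 76.9, 167, 129, 60.1 and 189 CPM in the order of libraries 1 to 9. Libraries 2, 5 and 8 lay below the other 6, library 9 was highest, and the range was 3.14-fold (95% interval 2.98 to 3.32). Neu1, the lysosomal sialidase, had 93.5, 75.5, 106, 102, 63.6, 111, 102, 49.5 and 103 CPM, again lowest in libraries 8, 5 and 2, with a range of 2.23-fold (95% interval 2.11 to 2.36). Its other 6 libraries lay close together, between 93.5 and 111 CPM. Without library 8 its log2 range was 0.80, under 2-fold. Gaa, which breaks down glycogen, ran from 445 CPM in library 8 to 921 CPM in library 6, a range of 2.07-fold (95% interval 2.03 to 2.11), and Hexa, a subunit of beta-hexosaminidase, from 321 CPM in library 8 to 685 CPM in library 6, 2.13-fold (95% interval 2.09 to 2.18). The ranges of the other 4 did not reach 2-fold. Gusb, beta-glucuronidase, ran from 148 CPM in library 1 to 241 CPM in library 6, Glb1, the beta-galactosidase whose activity is used as a stain for senescence, from 157 CPM in library 1 to 230.2 CPM in library 6, Man2b1, an alpha-mannosidase, from 266 CPM in library 8 to 441 CPM in library 6, and Naglu, which acts on heparan sulphate, from 63.2 CPM in library 8 to 126 CPM in library 6. In library 2 Gusb and Man2b1 were at 228 and 426 CPM, higher than in any other library except library 6, where they were at 241 and 441 CPM.

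**Figure D3:**
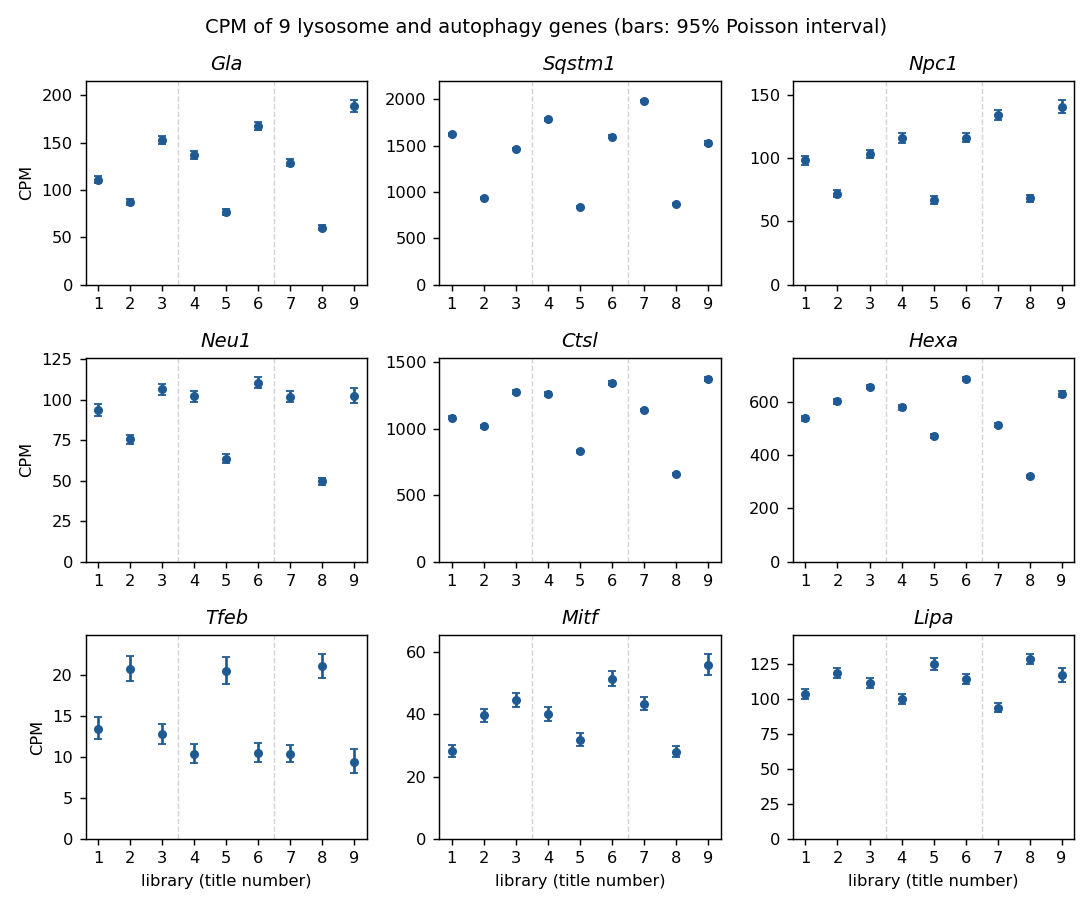
CPM of 9 genes in each library, by title number, with 95% Poisson intervals that cover counting error only. Sqstm1, Npc1, Neu1, Gla and Ctsl are lowest in libraries 2, 5 and 8, while Tfeb, at 20.5 to 21.0 CPM, and Lipa, at 119 to 129 CPM, are highest there.

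Of the 6 genes of lipid handling, 4 were lowest in library 8 (14.7% of all tested genes). In 2 of them, Npc1 and Asah1, libraries 2, 5 and 8 held the 3 lowest values (20.1%). Npc1, the membrane protein that exports cholesterol from the lysosome, had in libraries 1 to 9 98.1, 71.8, 103, 115, 66.9, 116, 134, 68.00 and 141 CPM. Libraries 2, 5 and 8 lay together, at 66.9 to 71.8 CPM, below the other 6, with a range of 2.10-fold (95% interval 1.98 to 2.23). Its partner Npc2, a soluble cholesterol carrier, had only a 1.405-fold (95% interval 1.38 to 1.43) range, from 465 CPM in library 8 to 653 CPM in library 6. Psap, the precursor of the saposins that present sphingolipids to their hydrolases, had 2767, 2388, 2782, 2521, 2027, 2735, 2255, 1587 and 2856 CPM in the order of the libraries. Library 8 was lowest and library 5 next, with libraries 7 and 2 above them, and the range was 1.799-fold (95% interval 1.78 to 1.82). Asah1, acid ceramidase, ran from 132 CPM in library 8 to 224 CPM in library 6, and Ppt1, which removes fatty acids from proteins, from 95.3 CPM in library 8 to 139.6 CPM in library 9. Lipa, the acid lipase that frees cholesterol from its esters, went the other way and ran from 94.1 CPM in library 7 to 129 CPM in library 8, a 1.37-fold (95% interval 1.31 to 1.43) range, with its 3 highest values in libraries 8, 5 and 2.

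Of the membrane proteins, 0 of 5 were variable (28.0% of all tested genes) and 4 were lowest in library 8 (14.7%). Lamp1, a main structural glycoprotein of the lysosome membrane, had 1719, 1565, 1953, 1773, 1376, 1993, 1746, 1156 and 1764 CPM in libraries 1 to 9, lowest in libraries 8, 5 and 2, a range of 1.72-fold (95% interval 1.703 to 1.74). Lamp2, a related glycoprotein that also acts in chaperone-mediated autophagy, had 827, 813, 928, 856, 719, 943, 815, 599.8 and 1136 CPM in the same order and a range of 1.89-fold (95% interval 1.86 to 1.93). Its library 9 stood above all others, while library 2 lay just below library 7. Mcoln1, a calcium channel of the lysosome, had 92.8, 76.1, 93.3, 94.7, 70.9, 103, 104, 63.01 and 107 CPM, with libraries 8, 5 and 2 below the rest and a range of 1.703-fold (95% interval 1.603 to 1.81). Scarb2, which carries glucocerebrosidase to the lysosome, ran only from 216 CPM in library 8 to 274 CPM in library 6. Cln3, a membrane protein mutated in juvenile Batten disease in humans, was among the least abundant members, from 13.8 CPM in library 3 to 17.99 CPM in library 2.

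All 5 genes of the proton pump were lowest in library 8 (14.7% of all tested genes) and all 5 had their 3 lowest values in libraries 2, 5 and 8 (20.1%), although 0 of 5 were variable (28.0%). Atp6ap1, an accessory protein of pump assembly, had in libraries 1 to 9 431, 349, 434, 448, 309.7, 446, 422, 260.1 and 509 CPM, with a range of 1.96-fold (95% interval 1.903 to 2.01). Atp6v1h, a subunit of the ATP-hydrolysing V1 part, had 85.5, 67.6, 95.8, 97.7, 64.1, 102, 107, 63.01 and 116 CPM, and here libraries 8, 5 and 2 lay at 63.0 to 67.6 CPM against 85.5 CPM or more in the other 6, a range of 1.85-fold (95% interval 1.74 to 1.96). The catalytic subunit Atp6v1a ran from 202 CPM in library 8 to 332 CPM in library 9. Of the subunits of V0, the membrane part, Atp6v0a1 ran from 163 CPM in library 8 to 273 CPM in library 6. Atp6v0d1, also of V0, ran from 110.5 CPM in library 8 to 172 CPM in library 6.

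The transcription factor genes did not share an order, and per length each of them lay below every enzyme of the list. Tfeb had 13.4, 20.7, 12.7, 10.3, 20.5, 10.5, 10.4, 21.02 and 9.41 CPM in libraries 1 to 9. Its values in libraries 2, 5 and 8 were all above those in the other 6, opposite to most members, with a range of 2.23-fold (95% interval 1.89 to 2.65). Tfe3 had 75.3, 77.2, 71.4, 80.4, 74.2, 74.4, 85.1, 88.3 and 74.9 CPM and was the member of narrowest range, 1.24-fold (95% interval 1.17 to 1.304). Mitf had 28.2, 39.6, 44.5, 40.03, 31.8, 51.4, 43.3, 27.9 and 55.9 CPM, lowest in libraries 8 and 1 and highest in library 9, a range of 2.004-fold (95% interval 1.84 to 2.19) that lay at the 2-fold limit and fell under it in 10 of the 16 alternatives tried. Flcn, which encodes folliculin, a regulator of the Rag GTPases that keeps TFEB and TFE3 in the cytoplasm, had 93.3, 76.6, 103, 99.7, 71.6, 111, 103, 67.8 and 101 CPM. For this gene libraries 8, 5 and 2 were again the 3 lowest, with a range of 1.64-fold (95% interval 1.56 to 1.73).

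Of the 7 autophagy genes, 1 was variable (28.0% of all tested genes) and 3 were lowest in library 8 (14.7%). Sqstm1, which encodes p62, a receptor that links ubiquitinated cargo to the autophagosome membrane, had in libraries 1 to 9 1621, 937, 1461, 1784, 839.7, 1598, 1984, 870.4 and 1531 CPM. Libraries 5, 8 and 2 lay between 840 and 937 CPM and the other 6 between 1461 and 1984 CPM, and the range was 2.36-fold (95% interval 2.33 to 2.397). Map1lc3b, the LC3 protein that is attached to autophagosome membranes, had 347, 304, 367, 320.01, 254, 336, 271, 204 and 299 CPM, lowest in library 8, then 5, then 7, with a range of 1.79-fold (95% interval 1.74 to 1.85). Gabarapl1, a relative of LC3, had 138, 139, 163, 144, 119.97, 156, 140.1, 96.8 and 136 CPM, with library 8 lowest and library 5 next, and a range of 1.68-fold (95% interval 1.62 to 1.76). Becn1, beclin 1 of the lipid kinase complex that starts autophagosome formation, ran only from 107 CPM in library 8 to 138 CPM in library 9, and its partner Uvrag from 55.1 CPM in library 1 to 82.5 CPM in library 9. Ulk1, the initiating kinase, ran from 69.9 CPM in library 7 to 106 CPM in library 2. Wipi1, which binds phosphatidylinositol phosphates on the forming membrane, was highest in libraries 8, 5 and 2 and ran from 79.4 CPM in library 1 to 120.3 CPM in library 8. Exons of Becn1 and Gabarapl1 overlap gene models on the opposite strand over 43.9% and 28.3% of their bases and the sources used here do not say whether counting used strand.

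**Figure D4:**
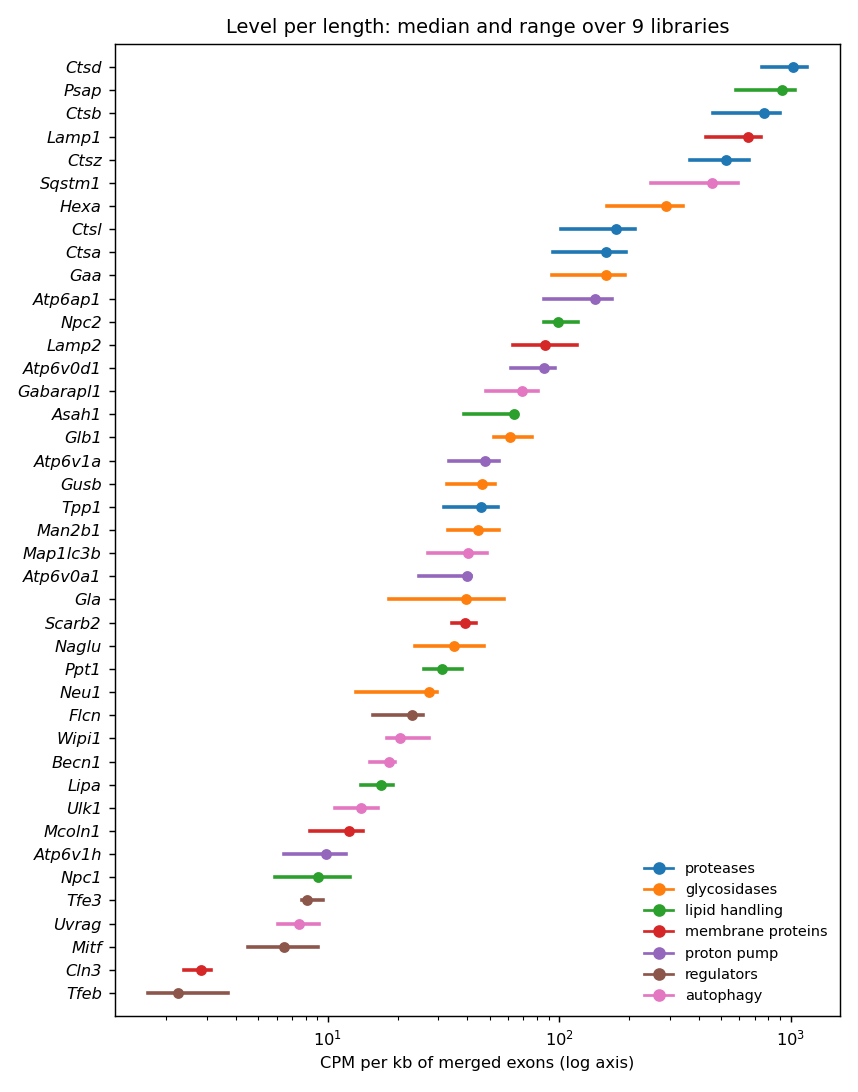
CPM per kb of merged exons (log axis) of the 41 genes, coloured by role, with the median over the 9 libraries (point) and the lowest to highest library (line). Ctsd, at a median of 1025, is at the top and Tfeb, at 2.25, at the bottom.

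Per length, the levels of the members differed widely. Divided by the merged exon length of the gene in GENCODE M21, the median level over the libraries was 1025 CPM per kb for Ctsd, 919 for Psap, 770.2 for Ctsb, 653 for Lamp1, 525 for Ctsz and 456 for Sqstm1. The ranges of these neighbours over the libraries overlapped. At the other end were Tfe3 at 8.14 CPM per kb, Uvrag at 7.52, Mitf at 6.46, Cln3 at 2.82 and Tfeb at 2.25. The highest library of Cln3 lay below the lowest library of Mitf, while Cln3 and Tfeb overlapped, as did Tfe3, Uvrag and Mitf. The merged length counts exons of all transcripts, so genes with long rarely used exons come out low. The 41 genes, all protein-coding, lie on 18 chromosomes, and 9 of them share over 10% of their exon bases with another gene model.

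A wider list of 138 further lysosome, autophagy and mTORC1 genes was set beside the 41, and 129 of them were tested. Of the 129 genes 67 were lowest in library 8 (14.7% of all tested genes), 48 had their 3 lowest values in libraries 2, 5 and 8 (20.1%) and 11 their 3 highest there (19.0%). Only 18 were variable, against 28.0% of all tested genes. The median difference from the gene's own median was -0.22 on the log2 scale in library 8 and -0.14 in library 5. By role, 4 of 14 further pump subunits were variable, 9 of 30 hydrolases, 1 of 22 sorting and membrane genes, 3 of 42 autophagy genes and 1 of 21 mTORC1 and Rag genes.

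The widest of these ranges in the nutrient-sensing group was that of Rragd, a Rag GTPase that docks mTORC1 to the lysosome. It had in libraries 1 to 9 17.3, 4.95, 26.9, 24.7, 3.47, 28.4, 23.6, 2.11 and 26.7 CPM, so that libraries 8, 5 and 2 lay at 4.95 CPM or below and the other 6 at 17.3 CPM or above. The range was 13.5-fold (95% interval 10.7 to 17.2). Its paralogue Rragc, chosen after its values were seen, ran from 95.1 CPM in library 2 to 175 CPM in library 9, and Fnip1, a partner of folliculin, from 90.9 CPM in library 8 to 176 CPM in library 9. Tecpr1, which tethers autophagosomes to lysosomes, had 115, 68.2, 148, 181, 68.2, 199.99, 221, 66.5 and 193 CPM, a range of 3.32-fold (95% interval 3.17 to 3.47), and Epg5, another tether of that fusion step, 77.6, 40.2, 78.9, 82.2, 40.1, 80.3, 90.6, 39.9 and 90.6 CPM, 2.27-fold (95% interval 2.11 to 2.44). In each of these genes libraries 2, 5 and 8 were the 3 lowest. For Tecpr1 and Epg5 these 3 libraries were nearly equal.

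Among the further pump subunits, 9 of 14 had their 3 lowest values in libraries 2, 5 and 8 (20.1% of all tested genes). Atp6v1b2, the B subunit of the V1 part, had in libraries 1 to 9 411, 235, 413, 418, 191, 412, 408, 174 and 413 CPM. Its 6 high libraries lay within 408 to 418 CPM, and the range was 2.396-fold (95% interval 2.32 to 2.47). Atp6v0e2, a small V0 subunit, ran from 2.55 CPM in library 8 to 7.07 CPM in library 7. Of the 30 further hydrolases, only 2 had their 3 lowest values in libraries 2, 5 and 8 (20.1% of all tested genes). Among them, Dpp7, a dipeptidyl peptidase, ran from 75.8 CPM in library 8 to 212 CPM in library 6. Its range was 2.798-fold (95% interval 2.68 to 2.92). Acp5, tartrate-resistant acid phosphatase, had 53.7, 32.5, 31.7, 26.4, 17.6, 12.5, 5.89, 4.85 and 2.297 CPM, a range of 23.4-fold (95% interval 17.2 to 32.6). Each library of Acp5 lay below the library with the next lower title number, but the counting intervals overlapped between libraries 2 and 3 and between libraries 7 and 8. Of the sorting and membrane genes, Abcb9, a peptide transporter, ran from 4.65 CPM in library 4 to 13.1 CPM in library 8, and Ctns, the cystine exporter, from 32.9 CPM in library 8 to 64.7 CPM in library 9.

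**Figure D5:**
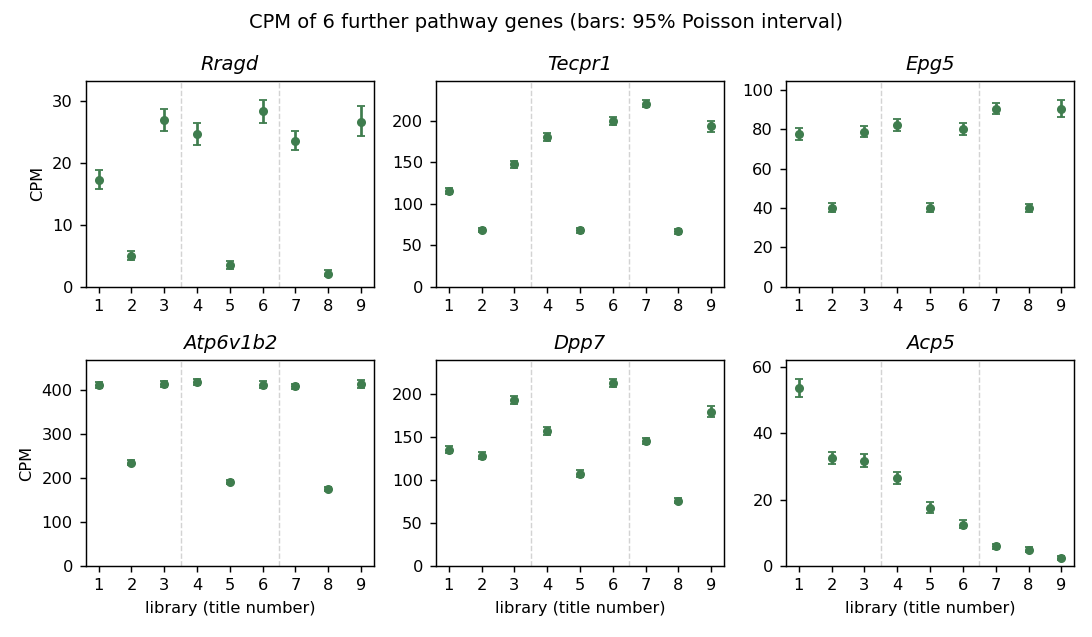
CPM of 6 further genes of the pathway in each library, by title number, with 95% Poisson intervals that cover counting error only. Rragd is at 4.95 CPM or below in libraries 2, 5 and 8, and Acp5 ranges from 53.7 CPM in library 1 to 2.297 CPM in library 9.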

How the data were processed

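The authors deposited 1 table of RSEM expected counts per gene for the 9 libraries, in whole numbers, with no normalisation. The build GRCm38 and the tools RSEM 1.3.3, STAR 2.7.8a, FastQC 0.11.8 and cutadapt 2.3 are listed in the submitters' processing notes. Their annotation release is unknown here. The 5 rows of reporter or Cre sequences hold 0 counts and were left out, and 0 columns were unmapped. RSEM divides reads that fit several genes by likelihood.

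Genes were kept by edgeR 4.0.16 in R 4.3.3 (minimum 10 counts in every library, at the median size, and 15 in total), scaled with TMM factors and put on the log2 CPM scale with a prior count of 2. With no groups, a quasi-likelihood test had no coefficient to test. Each gene's 9 counts were tested by a chi-square test of dispersion against counting noise, Benjamini-Hochberg adjusted over 12813 genes. The test was checked on simulated counts that held Poisson noise and planted changes alone, so the check does not cover other spread between libraries. Fold ranges compare the highest and lowest library with an exact conditional binomial 95% interval. Intervals cover counting error only, and a library's floor of 3 counts is 0.0742 to 0.164 CPM. Libraries of unknown kind are not replicates, so no mean, SD or test between sets of title numbers is given. The sources used here do not say whether libraries came from separate cultures.

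The members and lists were chosen with earlier results of these data known. Values in all libraries are given for 14 members fixed by name and the 2 of widest range in each role, and of the further genes the 2 of widest range with a mean of at least 5 CPM in each role are named (Rragc and the identity genes were added after their values were seen). Positions and exon lengths come from GENCODE M21 on GRCm38. Alternatives changed the scaling, the filter, the prior count, the fold and the libraries.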

Additional observations from a re-analysis of the deposited data

How the results depend on the processing

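Scaling by RLE size factors or by totals, either other filter, a prior count of 0.5 or 5 and leaving out each library in turn were tried. The count of variable members, 10 of 41, was 5 with totals alone and 32 with a 1.5-fold range in place of 2-fold (56.7% of all tested genes), and ran from 4 (without library 8) to 10 over the libraries left out. The count of further pathway genes, 18 of 129, was 67 with a 1.5-fold range. With totals alone the range of Ctsa, Ctsl, Gaa, Npc1 and Mitf fell under 2-fold, and with no filter on low counts that of Ctsa, Ctsl and Mitf. The cause was not tested. Over the other scalings, filters and prior counts, 27 to 30 members were lowest in library 8, while the share of all tested genes ran from 7.62% with no filter on low counts to 16.2% with a mean of at least 1 CPM. For libraries 2, 5 and 8 as the 3 lowest it was 17 to 19 members, against 8.93% of all tested genes with no filter, 15.3% with totals alone and 20.1% as reported, and the median difference in library 8 lay between -0.45 and -0.54 on the log2 scale. Leaving out library 8 or 9 for that order was chosen after seeing the data. Of 304 values of single members over 16 alternatives, 275 kept their side of the threshold and 19 fell under it. The other 10 counted as past it because the limit itself was lowered to 1.5-fold, with their ranges unchanged. No paired analysis was possible because the labels put no library in a group. Depth limits only the low genes, since 3 counts correspond to at most 0.164 CPM.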

Other observations

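Some lysosomal hydrolases outside the 41 genes were high in library 2 and low in libraries 7 or 9, an order unlike that of the proteases and the proton pump. Of the 30 further hydrolases tested, 15 were highest in library 2 (15.5% of all tested genes). In the same group 15 were lowest in library 8 (14.7%), 8 in library 7 (14.4%) and 4 in library 9 (16.7%). The hydrolases named next were chosen after their values were seen. Ctsc, the dipeptidyl peptidase cathepsin C, ran from 168 CPM in library 7 to 368 CPM in library 2, Arsb, a sulphatase of chondroitin and dermatan sulphate, from 76.0 to 169 CPM in the same libraries, and Pla2g15, a lysosomal phospholipase, from 60.0 CPM in library 9 to 128 CPM in library 2. All were variable, as were 28.0% of all tested genes.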
